A study of Mus musculus with 15 samples.

Results

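The H3K27ac peaks at the 3 RUNX transcription factor genes, Runx1, Runx2 and Runx3, and at Cbfb, the gene of their shared partner subunit, are described here for 1 tumor library. A peak was a member when it overlapped the RefSeq span of 1 of the 4 genes in the mouse build mm10 or the 100 kb on either side. This rule took 205 of the 122375 peaks of the list, 0.168%, and used no measured height or width. Each member was placed in 1 class, with 14 promoter peaks within 2 kb of a distal or proximal start site, 138 further peaks in a gene body and 53 in a flank.

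The study compared mouse models of fusion-positive rhabdomyosarcoma, a muscle-like tumor in which PAX3 is fused to FOXO1. The library came from an MCP tumor, in which Myf6-Cre acted in myogenic cells on Cdkn2a(Flox/Flox), on both copies of the Pax3 locus carrying the fusion (P3F/P3F) and on the R26-tdTom reporter. Cre thereby removed Cdkn2a, switched on the fusion from the Pax3 promoter and marked the cells with tdTomato, and every tumor library of the series carried the last 3 alleles. CUT&RUN, in which a nuclease tethered to an antibody frees the DNA around it, was done with antibodies to H3K27ac in 6 MCP and 3 TCP libraries (TCP tumors had Tek-Cre instead) and with control IgG in 3 of each, and 1 MCP H3K27ac peak list is used here. The labels give neither the age of the mouse nor the number of animals behind a library.

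RUNX proteins bind DNA through the Runt domain, and CBFB, which does not itself touch DNA, joins them to raise affinity and stability. Runx1 is known for blood stem cell formation, Runx2 for bone formation and Runx3 for cytotoxic T cells and sensory neurons. Each of the 3 genes has a distal promoter, P1, and a proximal promoter, P2, that make proteins with different N termini, whereas Cbfb has a single start region. H3K27ac, acetylation of lysine 27 of histone H3, marks active promoters and enhancers, so a peak reports the mark on chromatin and not the amount of RNA.

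In the whole list peaks were 163 bp wide and enriched 5.22-fold over IgG at the median, and the largest q was 0.0471. The fold and the p-value of a peak together gave back the number of sequenced fragments over its summit, with a median of 13 and a lowest value of 7. In 47.0% of the list the background was at its lowest value, 1.05, so the fold of those peaks varies with the fragments alone. It was so for 65 of 98 Runx1 members, 40 of 55 at Runx2, 17 of 25 at Runx3 and 22 of 27 at Cbfb. The peaks with a fold of 13.4 were among them. The fold adds a pseudocount of 1 to the scaled fragments and to the background before their ratio is taken. At these counts the absence of a peak means that none was called, not that the mark was absent. With 1 library no difference between loci could be tested against replicate spread, and intervals of fragments are exact 95% Poisson intervals that cover counting error only. The members are separate stretches of the same library and are not replicates. Defining genes of the labelled tissue were mostly without a promoter peak: of 10 myogenic genes 1 had one, Myf6 at a fold of 5.97, and Myod1, Myog, Myf5 and Pax7 had none. Promoter peaks stood at 1 of 10 leukocyte genes (Cd68, 5.91), 0 of 10 endothelial genes and 1 of 10 osteoblast and cartilage genes (Dmp1, 6.10), against 45.6% of 21000 protein-coding genes. In the gene span a peak lay at 2 myogenic, 1 leukocyte, 4 endothelial and 2 osteoblast and cartilage genes, against 50.9% of protein-coding genes. Their part in the values at the RUNX genes was not tested.

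The distal promoters of the 3 RUNX genes shared a pair of RUNX letters, shown first because it is the sequence feature these starts had in common. The letters were ACCACA (the reverse complement of TGTGGT, the core that the Runt domain recognizes), repeated after 2 bases, and they stand in capitals below. The sequences are from RefSeq, build GRCm38.p6 (mm10), read 5′ to 3′ along each gene.
Runx1 distal (chr16:92826025-92826054, minus strand): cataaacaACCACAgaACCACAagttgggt
Runx2 distal (chr17:44814583-44814612, minus strand): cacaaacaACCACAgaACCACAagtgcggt
Runx3 distal (chr4:135120503-135120532, plus strand): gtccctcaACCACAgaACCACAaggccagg

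The pair began 29 bases after the start in Runx1 and 134 bases before it in Runx3. In Runx2, whose distal transcripts begin at chr17:44814797 and chr17:44814627, it began 24 bases after the latter. In windows of 250 bases before to 50 bases after each start, on either strand, the pair was found in 7 of 32851 RefSeq entries, 0.0213%, against 16.8% that held at least 1 copy of the RUNX letters. The 7 entries belonged to Runx1, Runx2, Runx3, Gm15462, Gm12236, Olfr24 and Gm16225, of which the last overlaps the Runx3 window on the opposite strand. The Runx2 window held a further copy 80 bases before chr17:44814627, which is downstream of the other distal start. The windows of the 2 proximal starts in the table, Runx1 and Runx3, and that of Cbfb held no copy. A match of letters is a description of the sequence and not a bound site.

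The starts differed in CpG content, and the 250 bases before 3 of them are shown with each CpG in capitals: both starts of Runx1, which had peaks, and the CpG-rich proximal start of Runx3, which had none. All 3 lie upstream of the start they belong to, and the proximal ones lie in an intron of the longer transcript.
Runx1 distal (chr16:92826075-92826324, minus strand): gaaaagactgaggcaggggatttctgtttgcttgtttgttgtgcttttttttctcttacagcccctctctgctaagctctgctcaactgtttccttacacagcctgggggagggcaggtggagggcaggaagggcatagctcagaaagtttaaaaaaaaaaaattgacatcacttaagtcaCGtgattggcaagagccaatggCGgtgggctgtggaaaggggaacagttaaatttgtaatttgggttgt
Runx1 proximal (chr16:92697330-92697579, minus strand): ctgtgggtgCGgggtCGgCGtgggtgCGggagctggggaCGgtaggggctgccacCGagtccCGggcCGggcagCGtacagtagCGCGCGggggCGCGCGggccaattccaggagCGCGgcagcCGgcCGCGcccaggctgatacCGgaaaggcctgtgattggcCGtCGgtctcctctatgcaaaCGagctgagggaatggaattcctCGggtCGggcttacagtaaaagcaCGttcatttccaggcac
Runx3 proximal (chr4:135152295-135152544, plus strand): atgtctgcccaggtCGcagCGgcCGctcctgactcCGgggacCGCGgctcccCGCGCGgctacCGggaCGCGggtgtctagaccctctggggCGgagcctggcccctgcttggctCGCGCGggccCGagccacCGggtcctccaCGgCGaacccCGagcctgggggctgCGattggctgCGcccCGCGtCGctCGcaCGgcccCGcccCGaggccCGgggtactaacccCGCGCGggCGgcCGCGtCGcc

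These stretches held 2, 27 and 38 CpG dinucleotides in that order. The same 250 bases held 0 at the Runx2 distal start chr17:44814627, 4 at the Runx2 proximal start, 8 at the Runx3 distal start and 25 at the Cbfb start, so the counts just upstream did not order the proximal starts above all distal ones. Over 500 bp on each side, the observed-to-expected CpG ratio was 0.335 at the distal start of Runx1, 0.164 at that of Runx2 and 0.359 at that of Runx3. The proximal starts had ratios of 0.865 in Runx1, 0.909 in Runx2 and 0.972 in Runx3, and the Cbfb start had 0.928. The Runx3 proximal start was thus the most CpG-rich of the 7, above 97.0% of the 31601 RefSeq starts.

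Of the 7 start sites 5 had at least 1 peak within 2 kb, beside 42.2% of all RefSeq starts. Both starts of Runx1, both of Runx2 and the start of Cbfb had one, and neither start of Runx3 did. By gene, 3 of 4 members had a promoter peak beside 45.6% of protein-coding genes, and the same 3 had a peak in the gene span beside 50.9%. All 4 had a peak within the span or the 100 kb around it, as did 84.3% of genes.

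Runx1 carried the strongest and widest of the promoter peaks, at its CpG-poor distal start (chr16:92826074, minus strand). That peak, chr16:92823886-92826043, was 2158 bp wide, had a fold of 13.4 and 30 fragments at its summit (20.2 to 42.8), and ended 31 bp short of the start. Its summit lay 0.448 kb into the gene, in coding exon 2 of the longer transcript. Only 0.977% of the peaks of the list had a fold as high and 0.570% were as wide. Among starts in the same decile of CpG ratio, 23.0% had a peak within 2 kb. By its highest promoter fold Runx1 stood above 94.8% of the 9569 genes with a promoter peak, whose median was 7.24.

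The proximal start of Runx1 (chr16:92697329) had 5 peaks instead of 1, and all were narrower. The highest, chr16:92697920-92698509, had its summit at -0.966 kb from it, upstream, with a fold of 8.61 and 20 fragments (12.2 to 30.9). The other 4 had folds of 3.87, 3.93, 4.17 and 6.08 and between 8 and 13 fragments. No summit lay within 500 bp of the proximal start, and 74.7% of starts of like CpG ratio had a peak within 2 kb. The intervals of fragments of the highest distal and proximal peaks overlapped.

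Runx2 had weak promoter peaks at both starts. At the distal start (chr17:44814797, minus strand) a single peak of 170 bp had a fold of 4.36 and 9 fragments (4.12 to 17.1), in the decile of starts by CpG ratio of which 12.6% had a peak. At the proximal start (chr17:44736648) there were 5 peaks with folds of 4.19, 4.79, 4.79, 5.65 and 6.51, the highest at -0.291 kb with 14 fragments (7.65 to 23.5). Of starts of like CpG ratio 79.0% had a peak. By its highest promoter fold Runx2 stood above 37.3% of the genes with a promoter peak.

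Cbfb had 2 promoter peaks around its start (chr8:105170674, plus strand), and neither covered the start itself. The upstream one, at -0.523 kb, had a fold of 5.22 and 11 fragments (5.49 to 19.7). The downstream one, chr8:105171632-105172481, was 850 bp wide and had a fold of 7.80 and 17 fragments (9.90 to 27.2), with its summit in intron 2, 1.52 kb after the start. This value was above 57.3% of the genes with a promoter peak.

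Runx3 had no peak at either start (chr4:135120645 and chr4:135152545, plus strand). The nearest peak edge was 40.5 kb from the distal start and 51.1 kb from the proximal start. Of starts in the same decile of CpG ratio 23.0% had a peak for the distal one and 79.0% for the CpG-rich proximal one.

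**Figure D1:**
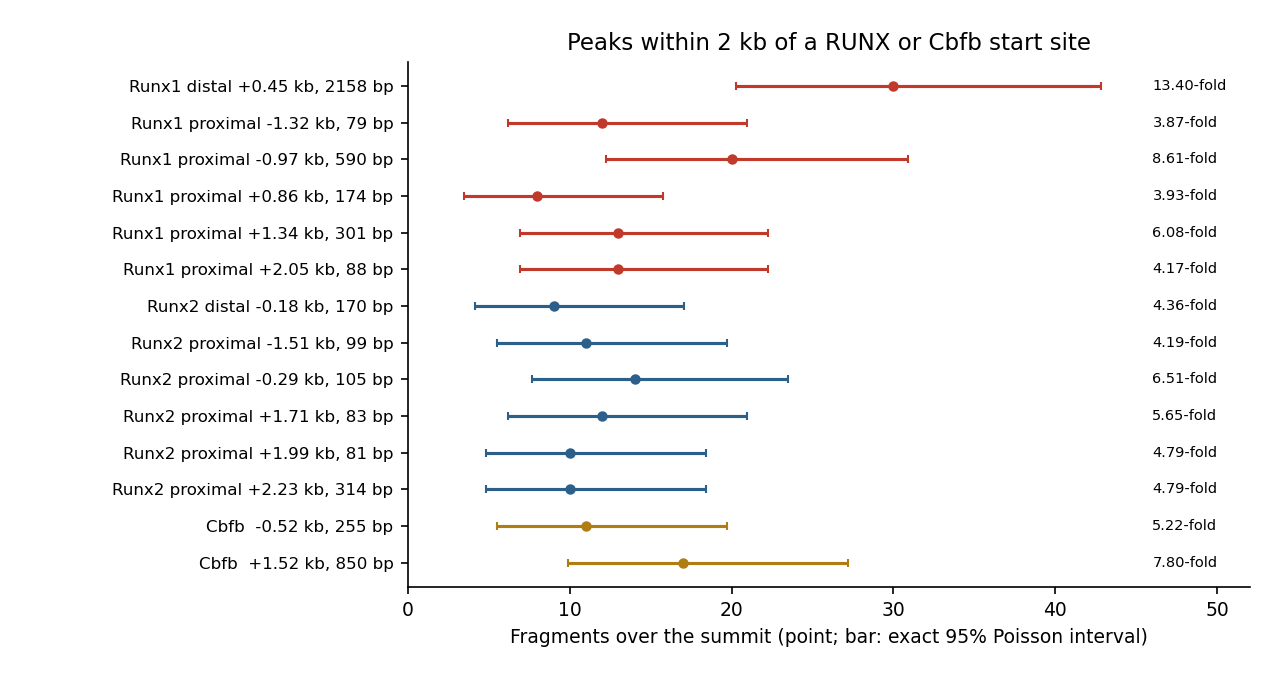
The 14 promoter peaks, each with its distance from the start site it belongs to and its width. Points are fragments over the summit on a linear axis from 0 and bars are exact 95% Poisson intervals, with the fold at the right; the Runx1 distal peak has 30 fragments and the other 13 have between 8 and 20.

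The 4 loci differed most in where the rest of their peaks lay. Runx1 held 98 of the 205 members, Runx2 55, Cbfb 27 and Runx3 25. Runx1 had 6 promoter, 83 gene body and 9 flank peaks and Runx2 6, 47 and 2, so both carried most of their peaks inside the gene. Cbfb had 2, 8 and 17, and all 25 peaks of Runx3 were flank peaks. Of all members 143 had their summit in an intron of the longest-reaching coding transcript, and 21 members lay at the start of a neighbouring gene. The matching shares of the whole list were not counted, so neither count can be called particular to these loci.

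**Figure D2:**
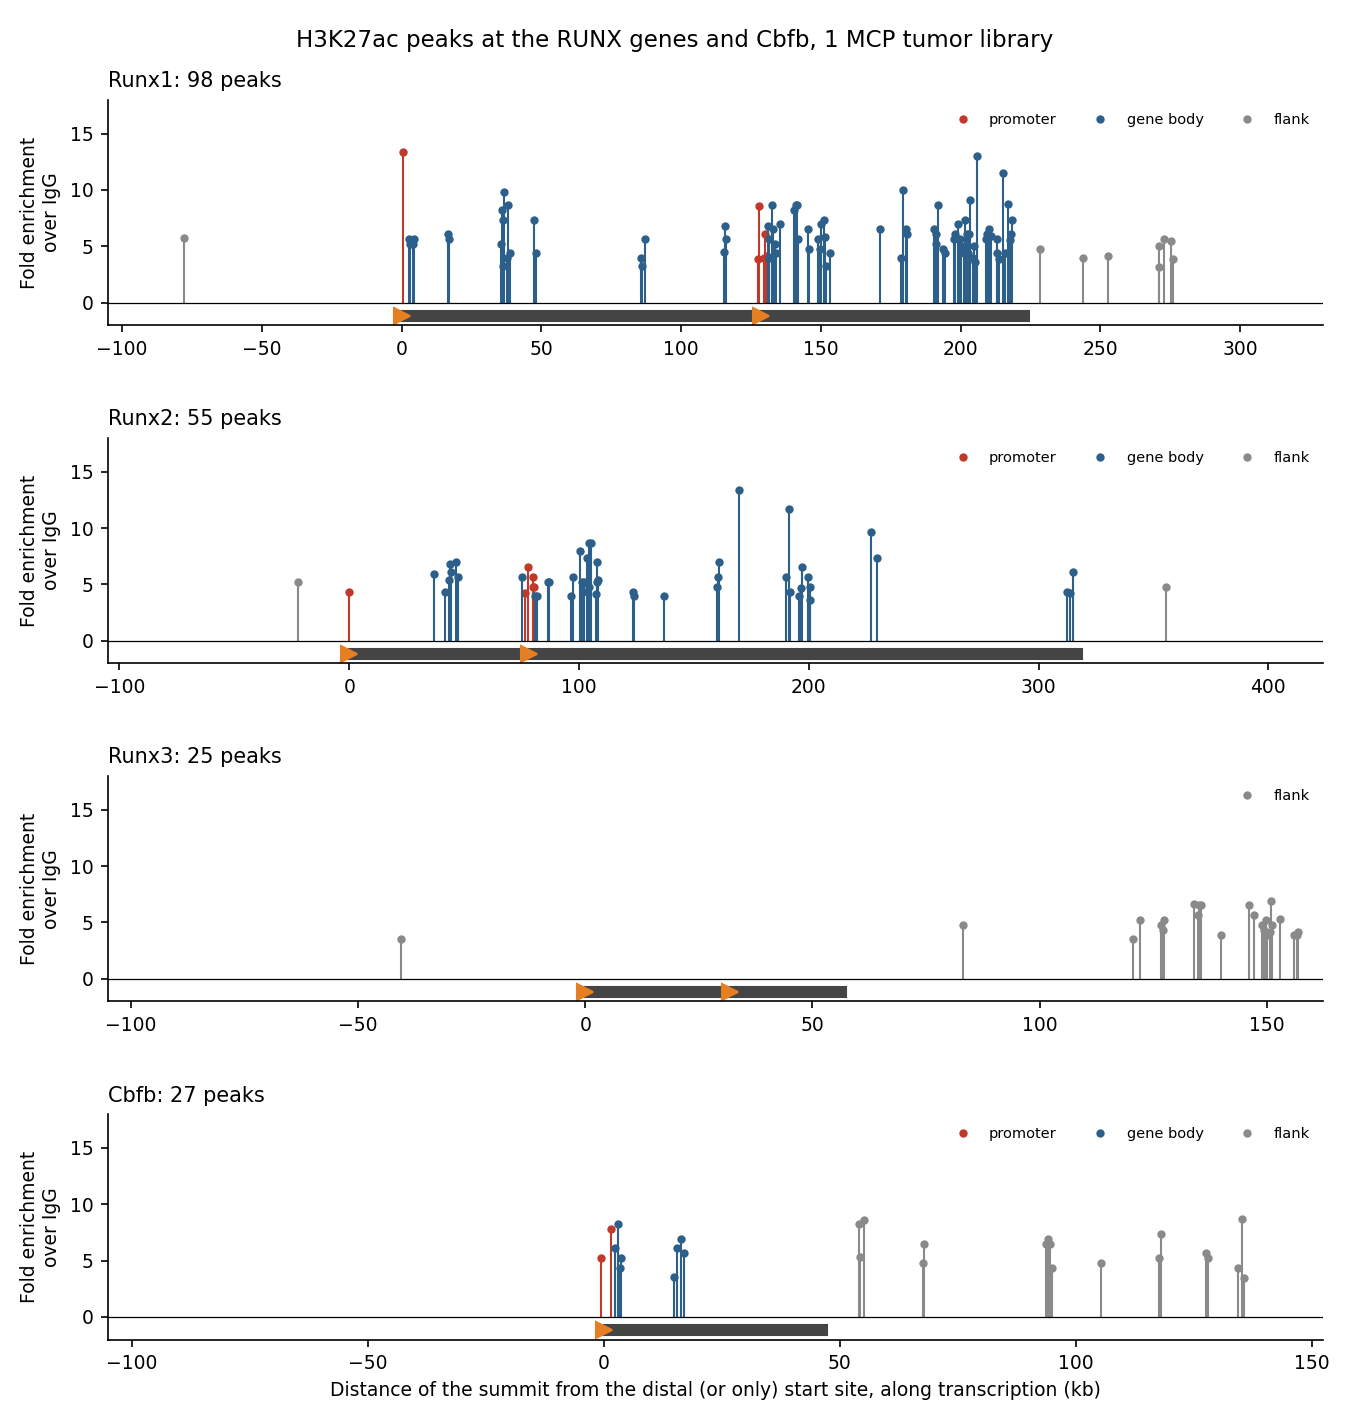
Fold enrichment over IgG (y axis) of every member by the distance of its summit from the distal or only start along the direction of transcription (x axis, kb), with red for promoter, blue for gene body and grey for flank peaks. Dark bars are gene spans and orange arrowheads start sites; Runx1 and Runx2 have peaks along the gene, Cbfb near its start and past its end, and Runx3 only outside the gene.

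Per length Runx1 was the most densely marked. It had 23.1 peaks per 100 kb of its span with 100 kb either side, against 10.6 in Runx2, 10.9 in Cbfb and 9.71 in Runx3, and a median of 6.16 over 21000 protein-coding genes. Runx1 stood above 94.8% of these genes and above 97.5% of the 641 genes of chromosome 16. Runx2, Cbfb and Runx3 stood above 70.5%, 71.7% and 67.0%, close to one another. Counted over the gene span alone and set against genes within 1.5 times its length, Runx1 stood above 97.2% of 988 genes, Runx2 above 88.1% of 666 and Cbfb above 81.4% of 3622. The Runx3 span held 0 peaks, like 31.1% of 3264 genes of its length.

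**Figure D3:**
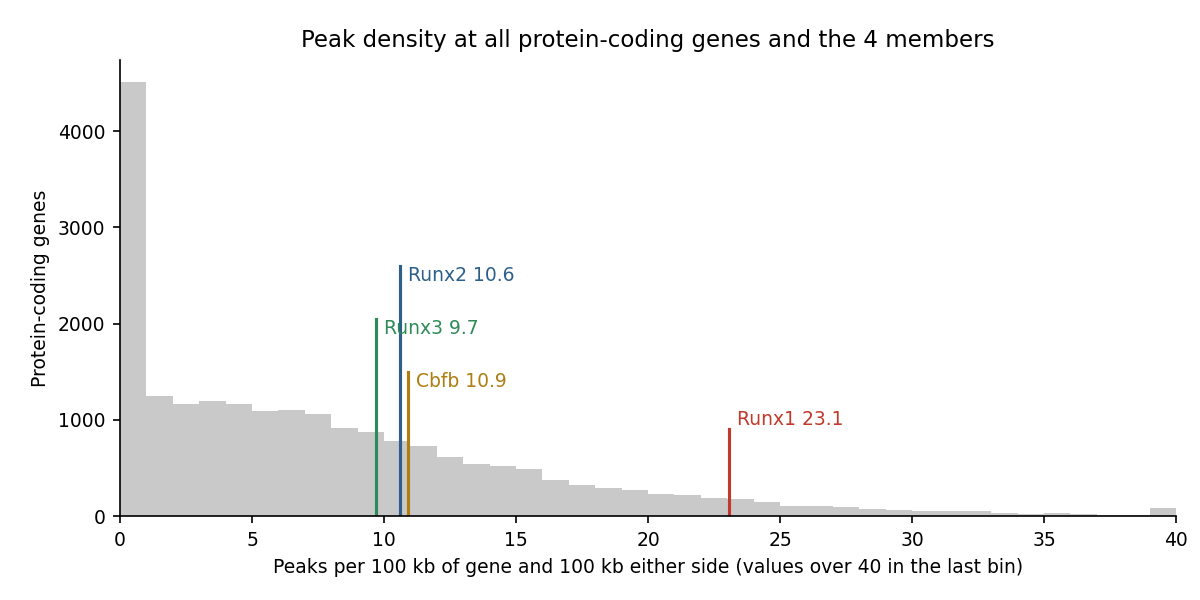
Number of protein-coding genes (y axis) by peaks per 100 kb of the gene with 100 kb either side (x axis), with a coloured line for each member. Runx2, Runx3 and Cbfb lie side by side between 9.71 and 10.9, and Runx1 lies apart at 23.1.

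Within Runx1 the peaks crowded behind the proximal start. The 95.9 kb from the proximal start to the gene end held 64 peaks, 66.8 per 100 kb, and the 129 kb between the starts held 25, 19.4 per 100 kb. The 100 kb upstream of the distal start held 1 peak, 77.9 kb away, and the 100 kb past the gene end held 8. The highest gene body peak, chr16:92619486-92620767, lay in intron 6 with a fold of 13.0 and 29 fragments (19.4 to 41.6). The second, chr16:92610403-92611850, lay in intron 7 with 11.5 and 28 fragments, and the third, chr16:92646334-92646639, in intron 5 with 9.96 and 22 fragments. Both of the former were over 1 kb wide, at 1282 and 1448 bp. The widest peak of the locus, chr16:92550976-92554458, lay past the gene end and measured 3483 bp with 37 fragments, but its local IgG background of 5.00 was the highest of the locus and its fold was 5.62.

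Between the Runx1 starts, 10 peaks lay in intron 2 from 35.5 to 48.1 kb after the distal start, the highest with a fold of 9.78 and 22 fragments. A known blood enhancer of Runx1 lies 23 kb after the start codon of the distal transcript. No peak lay within 5 kb of that position, and the nearest summit was 6.52 kb from it, 16.5 kb after the start codon, with a fold of 5.65. This position was looked up after the values were seen.

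In Runx2 the average density differed less between the 2 segments, but the peaks were not evenly spread. The 33.7 kb of chr17:44706182-44739879, across the proximal start, held 24 peaks. The 241 kb after the proximal start held 42 peaks, 17.5 per 100 kb, and the 78.1 kb between the starts held 10, 12.8 per 100 kb. The highest peak, chr17:44644917-44645355 in intron 6, matched the Runx1 distal peak with a fold of 13.4 and 30 fragments, but it was 439 bp wide and its summit lay in a run of CA repeats. The next, chr17:44623202-44624225 in intron 7, had 11.7 and 26 fragments (17.0 to 38.1). The widest, chr17:44587220-44589528, measured 2309 bp with a fold of 9.67 and 26 fragments, and was 1 of 5 gene body peaks beyond the end of the coding transcripts, within the longer RefSeq gene span. The start of Supt3, a gene of the SAGA coactivator complex that overlaps the 5′ end of Runx2, had 1 peak with a fold of 5.94 and 19 fragments.

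Cbfb had its 8 gene body peaks in intron 2, where the summit of its downstream promoter peak also lay. They had folds from 3.58 to 8.24, and the highest, chr8:105173393-105174036, had 18 fragments (10.7 to 28.4). The next had folds of 6.94 and 6.08, and the widest of the locus measured 895 bp. Its 17 flank peaks all lay past the gene end and 15 of them stood at starts of other genes, so the density of the Cbfb locus was in large part that of its neighbours. The highest were at Elmo3 (8.67), an engulfment adaptor, and D230025D16Rik (8.61), followed by 4931428F04Rik (7.39), Tradd and Fbxl8 with a shared start region (6.94), E2f4 (5.65) and Nol3 (4.79). Ces3b, Ces4a, B3gnt9, Hsf4, Exoc3l and Mir328 had no promoter peak.

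Runx3 lay in a stretch of 124 kb without any peak, which ran from 40.5 kb upstream of the gene to 25.7 kb past its end. Gaps at least this long made up 2.93% by number of the gaps between neighbouring peaks of the list. Long gaps cover more of the genome than their number shows, and the share of genes within them was not counted. Of the 25 peaks of the locus 24 lay downstream, and 19 of them fell in the span of Clic4, a chloride intracellular channel gene, with 4 at its start and the highest, at a fold of 6.94, among those. Folds at the locus ran from 3.50 to 6.94 with a median of 4.79, under the median of 5.65 at Runx1 and at Cbfb and of 5.22 at Runx2. These peaks continue beyond the limit of the locus: the last inside it lay 99.4 kb past the gene end with a fold of 4.17 and the first outside it 108 kb away with 4.36.

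**Figure D4:**
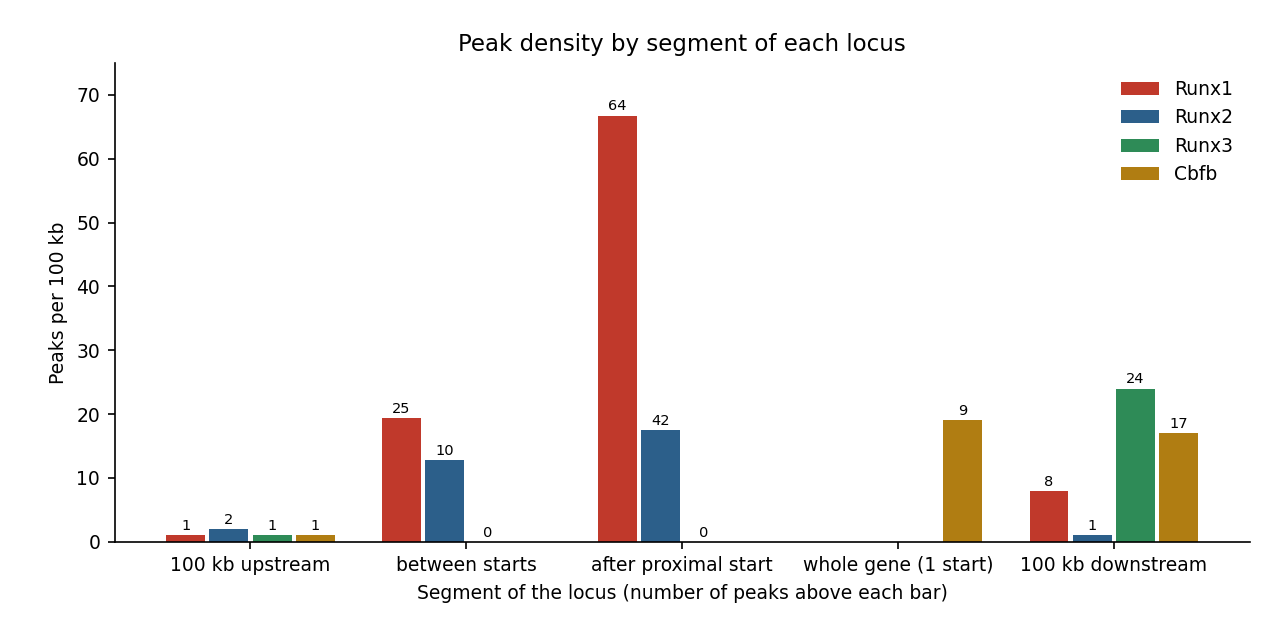
Peaks per 100 kb (y axis, from 0) in each segment of the 4 loci, with the number of peaks above each bar. The stretch after the proximal start of Runx1 reaches 66.8, against 17.5 in Runx2 and 0 in Runx3. The downstream 100 kb has 24 peaks at Runx3 and 17 at Cbfb, against 8 at Runx1 and 1 at Runx2.

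Very wide or very high peaks were few among the members. There were 3 wider than 2 kb, 1.46% beside 0.739% of the list, and 5 with a fold over 10, 2.44% beside 4.32% of the list, 3 in Runx1 and 2 in Runx2. The median fold of the members was 5.62 against 5.22 in the list, and the median width 177 against 163 bp.

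When peaks were stitched over the distance the study used for enhancers and ranked by summed fold times width, as for super-enhancers, 864 of 20840 clusters (4.15%) lay above the slope limit of the ROSE method. The 205 peaks fell in 24 clusters, apart from those left out near starts, and 2 of the 24 were above the limit. The one over a member gene covered the 3′ part of Runx1, chr16:92597791-92655861, with 41 peaks in 58.1 kb at rank 219. Thus 1 of 4 genes overlapped such a cluster beside 4.45% of protein-coding genes. That share is over genes of any length and was not matched to the length of Runx1. The other, at rank 749, covered part of Clic4 with its start and ran past the limit of the Runx3 locus. In the Runx3 flank lay 36.9 of its 73.6 kb and 23 listed peaks. Its rank rests on all 49 of its stitched peaks. It did not overlap Runx3. The second cluster of Runx1, around its proximal start, ranked 983, just under the limit. The best of Runx2, chr17:44706182-44739879 with 23 stitched peaks, ranked 986, also just under it, and the best of Cbfb ranked 2201.

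**Figure D5:**
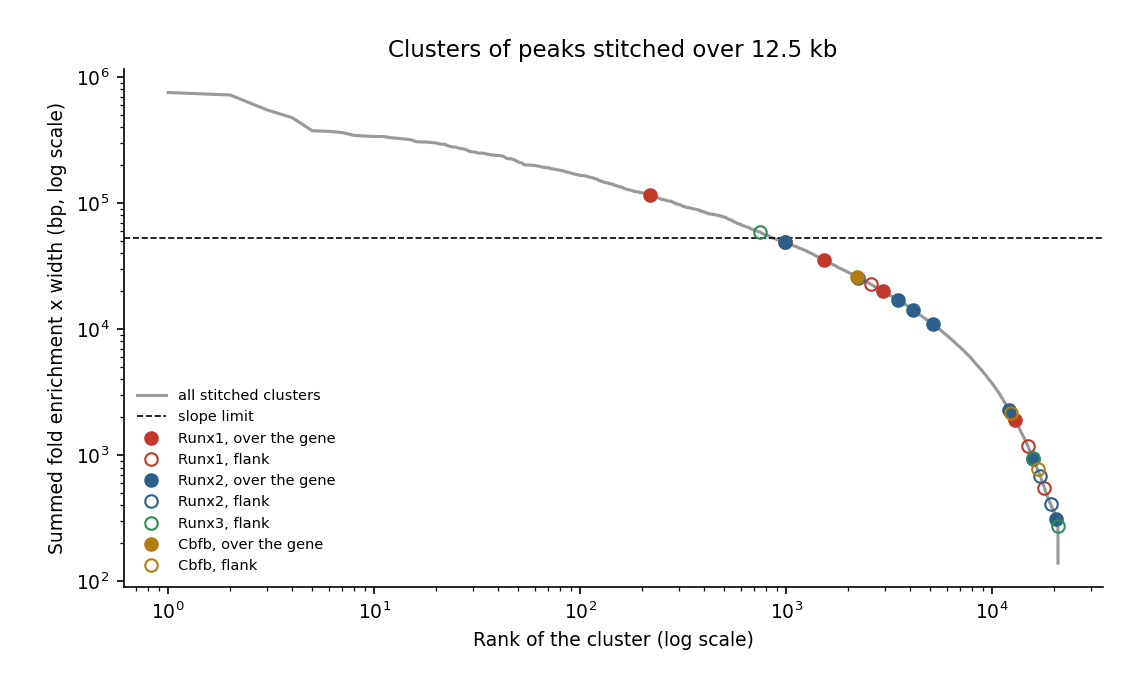
Stitched clusters by rank (x axis, log scale) and by summed fold times width (y axis, log scale), with those of the 4 loci marked by filled points where they overlap the gene and open points in the flanks. The Runx1 cluster at rank 219 and the cluster over the start of Clic4 at rank 749 lie above the dashed slope limit.

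The RUNX letters TGTGGT, on either strand within 100 bp of the summit, were in 31 of the 205 members, 15.1% (Wilson 95% interval 10.9 to 20.7), beside 15.9% of the list. Runx2 had the highest share, 13 of 55 peaks or 23.6% (14.4 to 36.3), and Runx1 had 13 of 98, 13.3%. All 4 loci had intervals that held the share of the list. A total of 4 peaks, each in a gene body, held more than 1 copy, 3 in Runx1 and 1 in Runx2. The share of the whole list with more than 1 copy was not counted, so no excess can be read from these 4. The Runx1 peak chr16:92693516-92694066, 3.70 kb after the proximal start with a fold of 8.67 and 19 fragments, held 3 copies, and the wide Runx2 peak with a fold of 9.67 held 2. Their summit windows are shown, chosen after the counts were seen, with the RUNX letters in capitals and read along each gene.
Runx1 intron peak (chr16:92693528-92693728, minus strand): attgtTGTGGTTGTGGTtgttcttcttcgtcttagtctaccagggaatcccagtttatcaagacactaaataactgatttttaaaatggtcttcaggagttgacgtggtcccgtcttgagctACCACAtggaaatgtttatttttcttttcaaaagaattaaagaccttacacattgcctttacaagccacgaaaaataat
Runx2 wide peak (chr17:44587659-44587859, minus strand): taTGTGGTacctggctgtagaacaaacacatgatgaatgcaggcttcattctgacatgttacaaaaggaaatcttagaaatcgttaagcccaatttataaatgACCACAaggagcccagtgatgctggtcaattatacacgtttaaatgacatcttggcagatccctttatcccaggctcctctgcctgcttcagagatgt

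In the Runx1 window a pair of copies stood directly side by side. Of that window 44.8% was masked as repeat in the reference, and whether the copies lay in the masked part was not counted. The median GC content of the windows was 47.8% in the members and 45.8% in the list. Windows overlapped in 5 pairs of neighbouring members.

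The letters of other factors were near the share of the list. E-box letters CAGCTG, bound by MYOD and its relatives, were in 11.2% of the members beside 10.0%, AP-1 letters TGANTCA in 8.78% beside 8.05%, GATA letters AGATAA in 10.2% beside 11.1% and TEAD letters GGAATG in 12.2% beside 11.4%. The PAX homeodomain pair was in 1 member, at Cbfb, or 0.488% beside 0.436%. ETS letters CAGGAA were in 24.9% beside 22.7%, and at Cbfb in 12 of 27 peaks, 44.4% (27.6 to 62.7). Of the 28 shares of 7 motifs at 4 loci 2 had an interval that did not hold the share of the list, this one and that of the PAX pair at Cbfb, which rests on the 1 peak. At Cbfb, 15 of the 27 peaks stood at starts of other genes.

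The summit of the highest Runx2 peak fell in simple repeats, which are given in capitals where a run of CA or TG was at least 8 bases long, and its longest run measured 37 bases.
Runx2 intron 6 peak (chr17:44645060-44645260, minus strand): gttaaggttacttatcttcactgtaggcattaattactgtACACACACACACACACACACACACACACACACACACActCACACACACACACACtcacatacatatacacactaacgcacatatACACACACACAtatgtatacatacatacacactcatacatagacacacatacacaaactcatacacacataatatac

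Of this window 84.1% was masked as repeat in the reference. Runs of at least 20 bases were near the summit of 12 members, 5.85% beside 3.53% of the list, 7 in Runx1 and 5 in Runx2, and the third Runx1 gene body peak was among them with 29 bases. Whether repeats moved the fold of these peaks was not tested.

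Genes that act with RUNX proteins were read at their own starts, as lists chosen by function. All 6 coactivator genes had a promoter peak, beside 45.6% of protein-coding genes, with Ep300, a histone acetyltransferase that writes H3K27ac, at 10.4 and Yap1, a Hippo pathway coactivator, at 9.67. Of the 9 corepressor genes 4 did, led by Tle3, a Groucho family member that binds the C terminus of RUNX proteins, at 9.10 and Sin3a, an HDAC scaffold, at 8.68. The 5 without one included Tle1, Tle2, Hdac1 and Cbfa2t3. Of 5 genes of RUNX protein turnover 4 did, with the ubiquitin ligases Smurf2 at 12.03 and Wwp1 at 10.8, and Stub1 had none.

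Among the known target genes a promoter peak was rare. Of 8 skeletal targets of RUNX2 only Spp1, which encodes osteopontin, had one, at a fold of 8.71 with 21 fragments. Sp7, Bglap, Ibsp and Alpl were among the 7 without. Of 8 blood targets of RUNX1 and RUNX3 only Zbtb7b, a helper T cell regulator, had one, at 9.36 with 21 fragments, and Spi1, Csf1r, Gfi1 and Gfi1b were among the 7 without. Each list thus had 1 of 8, beside 45.6% of all protein-coding genes.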

How the data were processed

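H3K27ac CUT&RUN of MCP tumor cells, sorted live by DAPI, was analysed from 1 deposited narrowPeak list on mm10. The authors aligned paired reads, discarded reads in ENCODE problematic regions and in amplified sequence by Col19a1, and each library was then called against IgG. The study's methods name bowtie and MACS1.4, and the submitters' processing notes name BWA, SAMtools and MACS2. The list was taken to be MCP H3K27ac replicate 5 from the library number in its peak names. Per the deposited list, each peak has a fold, a −log10 p, a −log10 q and a score equal to 10 times the −log10 q without decimals. By the MACS2 formula the fold is the scaled summit pileup plus 1, over the background plus 1. That background is the larger of the local IgG value and a floor. The total read depth was not given in the sources used here.

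Here, Python 3.11.15, pandas 2.3.3 and scipy 1.17.1 were used. Starts were curated RefSeq starts, joined within 500 bp, and 1 bp of overlap placed a peak in a class, promoter before gene body before flank. Fragments were solved from fold and p by the MACS2 formula with a tolerance of 0.01 in −log10 p, tested on simulated data, and 91.3% of peaks had 1 solution. Introns were numbered in the longest-reaching coding transcript. Named were all promoter peaks, the 3 highest gene body peaks and, except at Runx3, the widest peak of each locus. Flank peaks and neighbours with a start in a locus were named in part, and in each gene list the 2 highest. The members and lists were chosen with earlier results of these data known. Alternatives covered peak strength, window widths, annotation, motif windows and stitching.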

Additional observations from a re-analysis of the deposited data

How the results depend on the processing

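No paired analysis was possible because the peak list holds 1 library. Of 91 alternative values 42 stayed within 1.5 times a count or within the 95% Wilson interval of a share of members or of a percentile over 21000 genes, and 49 moved. The interval of a percentile is narrow, so small shifts count as moved. With a −log10 q of at least 5 the loci of Runx1, Runx2, Runx3 and Cbfb held 63, 27, 8 and 16 peaks, the classes promoter, gene body and flank 6, 86 and 22, and the percentiles of density were 97.7 at Runx1, 52.4 at Runx3 and 77.7 at Cbfb. With the strongest 25% of the list these were 30, 14, 3 and 9 peaks, 3, 43 and 10 by class, and percentiles of 95.3, 68.3, 44.9 and 78.8. Then 3 start sites kept a peak, both of Runx1 and that of Cbfb, 1 cluster was above the limit, 2 coactivator genes had a promoter peak, and AP-1, GATA and TEAD letters were in 5.36%, 16.1% and 21.4% of 56 members, beside 6.63%, 10.7% and 11.2% of the list. Fewer peaks entered each of these counts by construction. The shares of all genes and of all starts with a peak at these settings were not counted.

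With 50 kb either side the Runx3 locus held 2 peaks and the percentiles were 96.5, 76.8, 27.4 and 76.2. Over the gene span alone they were 91.3, 77.2, 0 and 79.8, and by bases covered 96.2, 75.8 and 61.9 at the 3 RUNX genes. A promoter of 1 kb held 7 member peaks. Within 50 bp of the summit the RUNX, E-box, AP-1, ETS, GATA and TEAD letters were in 8.29%, 5.85%, 3.90%, 14.6%, 6.34% and 6.34% of members. For each of these motifs the share of the list was also lower within 50 bp than within 100 bp. The members lay below the list for RUNX letters and above it for the others. Over the whole peak GATA letters were in 18.5% of members. The matching share of the list rose as well, but by less. Stitching over 5 kb put 4 clusters above the limit, 3 at Runx1 and 1 at Runx2, and ranking by summed width also 4, with 2 at Runx1 and 1 each at Runx2 and Runx3. Leaving out peaks with CA runs of 20 bases, chosen after seeing the data, left 91, 50, 25 and 27 peaks. With GENCODE starts Runx3 again had no peak at a start, and the other alternatives for start sites could only take peaks away. How the results change with depth was not tested.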
